A study of Mus musculus with 8 samples.

Results

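The collagen genes were described in proliferating C2C12 cells, a mouse myoblast line, after knockdown of 3 subunits of the SWI/SNF (BAF) chromatin remodellers. Members were chosen by symbol: a gene was taken where its Entrez ID maps to a symbol made of Col, a type number, the letter a and a chain number. The rule found 44 of the 24573 genes in the expression table. By the usual classes these were 11 fibrillar genes, 9 genes of network-forming collagens, 9 FACITs (fibril-associated collagens with interrupted triple helices) and 15 others, which are the beaded-filament, anchoring-fibril, transmembrane and multiplexin collagens and those in no such class. A count was seen for 42 of them, and 25 passed the filter on low counts and were tested.

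Collagens are secreted proteins in which chains, each encoded by its own gene, wind into a triple helix. Fibrillar collagens form the tensile fibrils of connective tissue, FACITs decorate those fibrils, network collagens form the sheets of basement membranes and related matrices, and collagen VI forms beaded filaments between cells and the fibrils. In skeletal muscle, collagen IV and collagen VI surround the fibres and the satellite cells beside them, and human mutations in the collagen VI genes cause muscle disease. Myoblasts and fibroblasts both make collagen, and many chains function only together with a partner chain of the same type.

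Total RNA was sequenced on a BGISEQ-500 from 4 groups of 2 libraries each. All cells were transduced with lentivirus in the presence of polybrene, selected and kept in puromycin, and harvested while growing below confluence in medium with calf serum. The hairpins were directed against Brd9 (a subunit of the non-canonical BAF complex), Baf250A (encoded by Arid1a, a subunit of canonical BAF) or Baf180 (encoded by Pbrm1, a subunit of PBAF), and the control was a scramble hairpin. The library titles carry 1 hairpin code per target, so an effect of the target and an effect of that hairpin on other genes cannot be told apart. Whether the paired libraries of a group are separate cultures is not stated, and p-values therefore reflect the spread among these libraries alone, possibly technical. In bulk RNA, fewer cells of a kind and less RNA per cell cannot be told apart.

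Library totals ran from 17763062 (scramble replicate 2) to 20400855 (Baf180 replicate 1) estimated counts, and 14195 to 14768 genes had a count in each library except scramble replicate 2, which had 16402. Each targeted gene was lower under its own hairpin. Brd9 had 157 and 135 counts in Brd9 libraries against 717 and 637 in scramble libraries, a log2 fold change of -2.39 (SE 0.16, adjusted p = 7.48e-05). Arid1a had 1335 and 1243 counts in Baf250A libraries against 2834 and 2720 in scramble libraries, a log2 fold change of -1.27 (SE 0.12, adjusted p = 0.000184). Pbrm1 had 65 and 86 counts in Baf180 libraries against 876 and 969 in scramble libraries, a log2 fold change of -3.63 (SE 0.28, adjusted p = 7.04e-05). Fold changes followed base composition: across 12290 genes, which are not independent replicates, Spearman's rho between transcript GC content and the log2 fold change was -0.295 in Brd9, -0.53 in Baf250A and 0.595 in Baf180 knockdown. The tested collagen genes had a GC content of 46.8 to 63.6%, with a median of 57.5%. Fold changes were therefore also computed with per-library offsets for GC content and transcript length. The offsets take out any true change that follows GC content or length as well. Shares, sums and levels in CPM are without the offsets.

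Collagen mRNA as a whole took a larger share of the RNA in every knockdown library than in either scramble library. The 44 genes held 0.779 and 0.707% of all counts in Brd9 libraries, 0.676 and 0.632% in Baf250A libraries and 0.882 and 0.966% in Baf180 libraries, against 0.408 and 0.398% in scramble libraries. The Wilson 95% interval of each share, which covers counting error only, was within 0.0044 points of it. In CPM, counts scaled by the size of each library, summed levels averaged 6831 ± 154 in Brd9, 6227 ± 384 in Baf250A and 10206 ± 322 in Baf180 libraries, against 4169 ± 118 CPM in scramble libraries (SD, n = 2 each). These were 1.64, 1.49 and 2.45 times the scramble level. FACIT mRNA stood highest over scramble, at 3.19, 2.18 and 4.02 times in Brd9, Baf250A and Baf180 libraries, and network mRNA lowest, at 1.18, 1.38 and 1.92 times. The FACIT sum was nearly all 1 gene, Col12a1. It averaged 654, 446, 820 and 196 CPM in Brd9, Baf250A, Baf180 and scramble libraries, where the FACIT sums were 680, 464, 858 and 213 CPM. No test was made on these sums, and they are without the GC and length offsets.

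**Figure D1:**
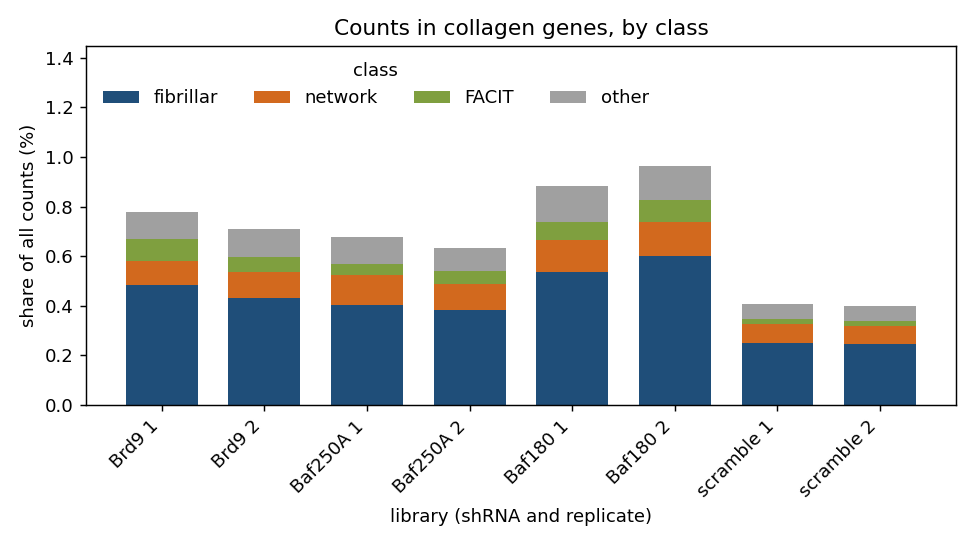
Share of all counts (%) held by the 44 collagen genes in each of the 8 libraries, stacked by class. The knockdown libraries lie between 0.632 and 0.966%, and both scramble libraries at about the same lower share of 0.408 and 0.398%.

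Marker genes of other cell types were read beside these sums. Each sum is led by its most abundant gene, so the other members that passed are given beside it where they differ. All 8 myoblast markers passed the filter, with a summed level, led by Des, of 1486 to 1932 CPM in Brd9 libraries, 782 to 1006 in Baf250A libraries, 2462 to 3496 in Baf180 libraries and 1888 to 1905 in scramble libraries. Myod1, Cdh15 and Itga7 were, like Des, highest in Baf180 and lowest in Baf250A libraries by group mean. The rest differed from Des. Means in Brd9, Baf250A, Baf180 and scramble libraries were 21.3, 13.9, 8.94 and 25.1 CPM for Myf5. They were 315, 15.9, 291 and 302 for Chrna1, 10.9, 0.556, 14.6 and 2.99 for Pax7, and 1.17, 0.231, 1.49 and 0.228 for Myog. GC content was 56.5% in Des, 58.9% in Myod1, 59.9% in Cdh15 and 57.0% in Itga7. For Myf5, Chrna1, Pax7 and Myog it was 41.6, 46.3, 55.3 and 54.8%. All marker levels here are without the GC and length offsets, and the part of GC content in their order was not tested. The 4 smooth muscle markers, led by Acta2, summed to 5423 to 6671 CPM in Brd9 libraries, 8863 to 10353 in Baf250A libraries, 9114 to 11309 in Baf180 libraries and 3586 to 3609 in scramble libraries, so this sum too was higher in every knockdown library than in scramble libraries. The same held for Tagln and Cnn1. Myh11 had 3 and 5 counts in Brd9, 57 and 65 in Baf250A and 20 and 12 in Baf180 libraries. Its scramble libraries had 2 and 5 counts, so they overlapped the Brd9 libraries. Of 6 fibroblast markers, 3 passed, Lum and Tcf21 had no count, and the sum, led by Pdpn, was 154 to 159 CPM in Brd9, 201 to 205 in Baf250A, 218 to 233 in Baf180 and 247 to 283 in scramble libraries. The other passing members did not follow Pdpn. Pdgfra had 26.5 and 19.0 CPM in Brd9, 33.1 and 39.3 in Baf250A and 23.2 and 25.6 in Baf180 libraries, against 9.10 and 7.22 CPM in scramble libraries, higher in every knockdown library. Dcn had 13 and 12 counts in Brd9, 3 and 6 in Baf250A and 11 and 18 in Baf180 libraries, against 1 and 4 counts in scramble libraries. 

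Osteoblast and tenocyte markers were likewise divided. Of 5 osteoblast markers 3 passed and Ibsp had no count, and the sums, led by Runx2, were 76.2 to 85.1, 76.7 to 87.4, 54.5 to 63.0 and 61.7 to 64.7 CPM in the Brd9, Baf250A, Baf180 and scramble libraries. Alpl had 107 and 95 counts in Brd9, 16 and 14 in Baf250A and 16 and 13 in Baf180 libraries, against 3 and 1 counts in scramble libraries. Sp7 had 12 and 6 counts in Brd9, 13 and 12 in Baf250A and 8 and 7 in Baf180 libraries, against 2 and 3 counts in scramble libraries. Both were higher in every knockdown library than in either scramble library. Of 4 tenocyte markers 3 passed, with a sum, led by Scx, of 77.9 to 94.7 CPM in Brd9, 39.6 to 42.7 in Baf250A, 115 to 150 in Baf180 and 106 to 110 in scramble libraries. Fmod had 10.2 and 11.8 CPM in Brd9, 3.87 and 4.44 in Baf250A and 11.4 and 10.1 in Baf180 libraries, against 0.955 and 1.39 CPM in scramble libraries, higher in every knockdown library. Mkx had 2.57 and 2.25 CPM in Brd9, 4.22 and 5.42 in Baf250A and 2.20 and 3.27 in Baf180 libraries, against 2.30 and 2.49 CPM in scramble libraries, and stood apart from scramble in Baf250A libraries. None of 4 endothelial markers passed, and their sum was at most 0.63 CPM in any library. Of 3 leukocyte markers, Cd68 passed, Adgre1 had no count, and the sum was at most 2.61 CPM. The part of these markers' cell types and states in the collagen results was not tested.

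A few genes made most of the collagen mRNA. Over the 8 libraries the fibrillar genes held 61.1% of collagen counts, the network genes 15.5%, the FACITs 8.14% and the others 15.3%. Col1a2, Col3a1 and Col5a2 alone held 46.1% of collagen CPM, and the top 10 genes held 93.7%. Per kilobase of transcript, the scale on which genes can be compared, Col3a1 and Col1a2 were the most abundant in all 4 groups, at 224 and 193 CPM per kb in Brd9, 175 and 185 in Baf250A, 281 and 361 in Baf180 and 134 and 131 in scramble libraries. By group mean Col3a1 led in Brd9 and Col1a2 in Baf250A and Baf180 libraries, and in scramble libraries the pair was too close to order.

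**Figure D2:**
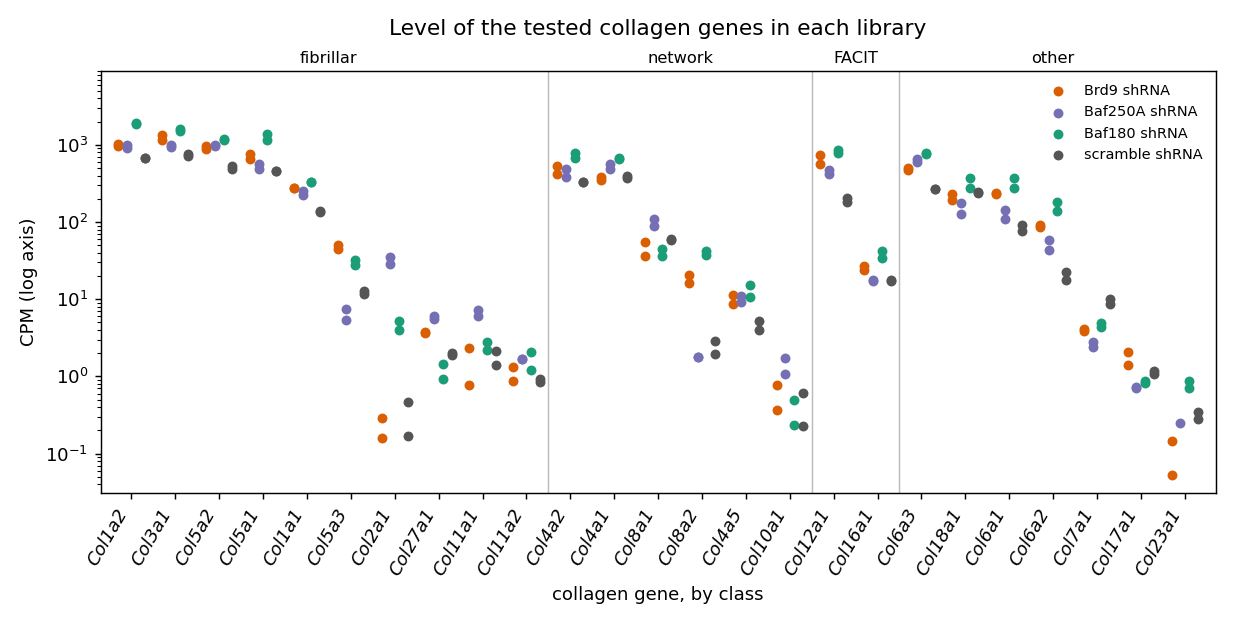
Level in CPM (log axis) of the 25 tested collagen genes, ordered by class, with 1 point per library and the groups in the order Brd9, Baf250A, Baf180 and scramble. Col23a1 had no count in Baf250A replicate 2, so that point is not drawn, and Col2a1 runs from 0.157 to 34.8 CPM where Col1a2 runs from 683 to 1908 CPM.

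Against scramble, Brd9 knockdown called 12 of the 25 tested collagen genes higher and 1 lower, where 6.45% of all 12420 tested genes were called higher and 3.57% lower. Baf250A knockdown called 13 higher and 3 lower, against 15.5% and 14.0% of all tested genes. Baf180 knockdown called 16 higher and 1 lower, against 17.2% and 17.0%. The median log2 fold change of the tested collagen genes was 0.61 for Brd9, 0.62 for Baf250A and 1.21 for Baf180, where the median over all tested genes was 0.04, -0.02 and -0.02. With the offsets the collagen medians were 0.49, 0.73 and 0.81. A gene was called at an adjusted p below 0.05 in edgeR's quasi-likelihood test, adjusted by Benjamini-Hochberg over all tested genes. The 25 are those that passed a filter on low counts, not all 44, and a gene near 0 in scramble libraries, such as Col2a1, could pass through the groups where it is high. Among the 19 with a mean of at least 5 CPM over all libraries, the counts were 12 higher and 1 lower in Brd9, 11 and 3 in Baf250A, and 16 and 1 in Baf180 knockdown.

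With the GC and length offsets the counts were 15 higher and 2 lower for Brd9, where 11.7% and 18.4% of all genes were called higher and lower. For Baf250A they were 18 higher and 3 lower, where all genes gave 17.9% and 17.4%, and for Baf180 they were 16 and 2, where all genes gave 18.0% and 20.2%. Every collagen gene called against scramble, 13, 16 and 17 in turn, was called in the same direction with the offsets. Calls were less stable to the choice of libraries, over all tested genes as well as for the collagen genes. Without scramble replicate 1 or 2, fewer of all tested genes were called in each comparison with scramble. The same held for Brd9 without Brd9 replicate 1. Leaving out each library in turn, 6 of 13 calls held in all fits for Brd9, 8 of 16 for Baf250A and 16 of 17 for Baf180. Leaving out scramble replicate 1, scramble replicate 2 or Brd9 replicate 1 left 8, 6 and 8 calls for Brd9, and leaving out scramble replicate 1 or 2 left 10 and 9 calls for Baf250A.

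Since all 3 comparisons share the scramble libraries, their calls are set side by side and the overlap is not a result in itself. Col1a1, Col1a2, Col5a2, Col4a5, Col12a1, Col6a1, Col6a2 and Col6a3 were called higher in each comparison, and Col7a1 lower in each. Col5a3 was called in opposite directions. Col10a1, Col11a2, Col17a1 and Col23a1 were called in none.

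**Figure D3:**
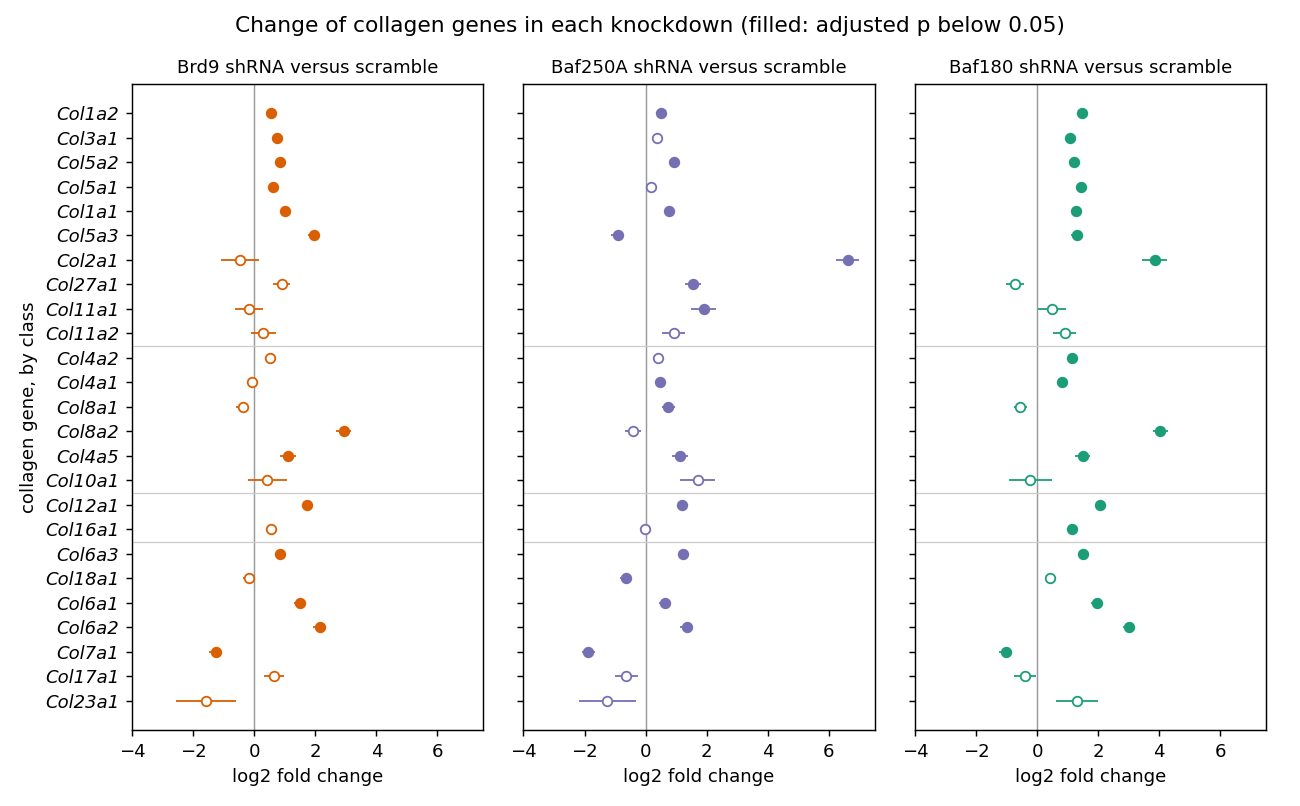
Log2 fold change against scramble (bar, SE) of the 25 tested collagen genes in Brd9, Baf250A and Baf180 knockdown, ordered by class as in the plot of levels. Filled points passed an adjusted p below 0.05 in edgeR's quasi-likelihood test, 13 in Brd9, 16 in Baf250A and 17 in Baf180 knockdown.

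**Figure D4:**
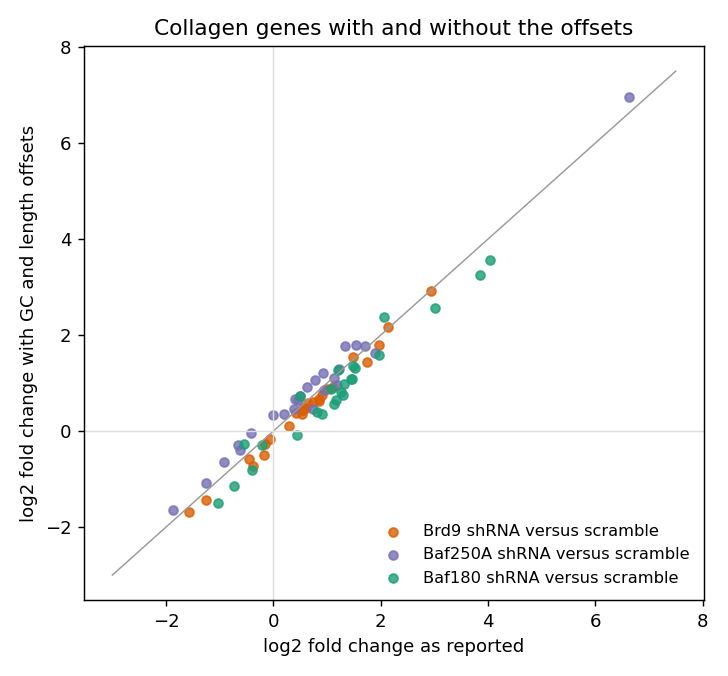
Log2 fold change against scramble without (x axis) and with (y axis) the GC and length offsets for the 25 tested collagen genes in each knockdown, with the line of equal values. Most Baf180 points lie below the line and most Baf250A points above it, and Col18a1 in Baf180 knockdown, at 0.44 and -0.09, changes sign without being called.

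The fibrillar collagens of the common interstitial fibril, types I, III and V, rose in most comparisons. Col1a1, Col1a2, Col3a1, Col5a1 and Col5a2 had their largest fold change in Baf180 knockdown, except that with the offsets Col1a1 was lowest there, at 0.81 against 0.88 in Brd9 and 1.07 in Baf250A knockdown, and Col5a3 had its largest in Brd9 knockdown. Of the 10 tested fibrillar genes, 6 rose and none fell in Brd9, 6 rose and 1 fell in Baf250A, and 7 rose and none fell in Baf180 knockdown. Of all tested genes, 6.45%, 15.5% and 17.2% were called higher and 3.57%, 14.0% and 17.0% lower in these comparisons. Col1a2, the alpha 2 chain of type I, the main collagen of bone and tendon, had 1035 and 979 CPM in Brd9, 1010 and 922 in Baf250A and 1908 and 1859 in Baf180 libraries, against 683 and 684 CPM in scramble libraries. Its partner Col1a1 had 276 and 276 CPM in Brd9, 250 and 222 in Baf250A and 327 and 332 in Baf180 libraries, against 139 and 137 CPM in scramble libraries. Neither gene overlapped between any knockdown and scramble. Col1a2 rose by 0.56 (log2, SE 0.12, adjusted p = 0.0224), 0.50 (SE 0.12, 0.0163) and 1.46 (SE 0.12, 0.000118) in Brd9, Baf250A and Baf180 knockdown, and Col1a1 by 1.00 (SE 0.12, 0.00138), 0.77 (SE 0.12, 0.0024) and 1.26 (SE 0.12, 0.000218). The Col1a2 calls ended without scramble replicate 1 or scramble replicate 2 in Brd9 and in Baf250A knockdown, and without Brd9 replicate 1 in Brd9 knockdown, with adjusted p up to 0.199 and 0.12, and the Col1a1 calls held in every such fit.

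Col3a1 encodes the single chain of collagen III, which mixes with type I in extensible tissue. Its level was 1334 and 1158 CPM in Brd9, 1008 and 934 in Baf250A and 1505 and 1624 in Baf180 libraries, against 767 and 722 CPM in scramble libraries, with no overlap with scramble. It rose by 0.74 (log2, SE 0.13, adjusted p = 0.00929) in Brd9 and by 1.07 (SE 0.13, 0.000787) in Baf180 knockdown, and the value in Baf250A knockdown was 0.38 (SE 0.13, 0.0546, called with the offsets at 0.47). The Brd9 call ended without scramble replicate 1, scramble replicate 2 or Brd9 replicate 1, with adjusted p up to 0.139.

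Collagen V nucleates and limits the width of type I fibrils, and its 3 chains behaved differently. Col5a2 had 957 and 878 CPM in Brd9, 968 and 988 in Baf250A and 1171 and 1183 in Baf180 libraries, against 532 and 487 CPM in scramble libraries. Col5a1 had 662 and 752 CPM in Brd9, 570 and 483 in Baf250A and 1365 and 1171 in Baf180 libraries, against 465 and 460 CPM in scramble libraries. Col5a3, the least abundant chain, had 44.6 and 50.2 CPM in Brd9, 7.44 and 5.37 in Baf250A and 32.6 and 27.5 in Baf180 libraries, against 12.6 and 11.7 CPM in scramble libraries. The Baf250A libraries thus held the lowest Col5a3 values, below both scramble libraries, and the lowest Col5a1 and Col5a2 values were in scramble libraries. Col5a2 rose in Brd9, Baf250A and Baf180 knockdown by 0.85, 0.94 and 1.21 (log2, SE 0.12 each, adjusted p = 0.00354, 0.000962 and 0.00028). Col5a1 rose by 0.61 in Brd9 (SE 0.14, 0.0306) and by 1.45 in Baf180 knockdown (SE 0.15, 0.000261), and had 0.19 in Baf250A knockdown (SE 0.14, 0.334, called with the offsets at 0.36). Col5a3 rose by 1.96 in Brd9 (SE 0.19, 0.000488) and 1.30 in Baf180 knockdown (SE 0.19, 0.00176), and fell by 0.92 in Baf250A knockdown (SE 0.20, 0.0102). The Brd9 call of Col5a1 ended without any 1 of the scramble or Brd9 libraries (adjusted p up to 0.213), that of Col5a2 without scramble replicate 2 (0.0824), and the Baf250A call of Col5a3 without scramble replicate 1 or Baf250A replicate 2 (up to 0.103). Col5a1 shares up to 113 bases of exon with antisense transcripts that are not in the table, so its counts are uncertain to that extent.

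Col2a1, the chain of the main cartilage collagen, showed the largest fold change among the tested collagen genes against scramble. It had 0.291 and 0.157 CPM in Brd9, 34.8 and 28.3 in Baf250A and 5.22 and 4.04 in Baf180 libraries, against 0.168 and 0.462 CPM in scramble libraries. In counts these were 6 and 3 in Brd9, 691 and 548 in Baf250A and 90 and 74 in Baf180 libraries, against 3 and 8 in scramble libraries. The Baf250A, then the Baf180 libraries stood above all others, and Brd9 and scramble libraries overlapped. The log2 fold change was 6.62 in Baf250A (SE 0.37, 98.4-fold, adjusted p = 1.31e-05) and 3.85 in Baf180 knockdown (SE 0.40, 14.5-fold, adjusted p = 0.000288), and -0.46 in Brd9 knockdown (SE 0.62, adjusted p = 0.645). With so few scramble counts the size of the fold is less certain than its call: without 1 library it ran from 6.07 to 7.49 in Baf250A and from 3.31 to 4.72 in Baf180 knockdown. Even in Baf250A libraries Col2a1 reached 6.38 CPM per kb, against 39.7 for Col1a1.

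Other cartilage markers were low or, like Sox9, not raised with it. Of 9 chondrocyte markers, 2 passed the filter, Sox9 and Matn3. Snorc and Chad had no count in any library, and Acan, Hapln1 and Matn1 had at most 2 counts in a library. The matrix gene Matn3 had 29 and 18 counts in Brd9, 28 and 29 in Baf250A and 2 and 13 in Baf180 libraries, against 15 and 8 counts in scramble libraries, and was not called, at 0.84, 1.14 and -0.63 (log2, SE 0.58, 0.56 and 0.68, adjusted p = 0.347, 0.146 and 0.485). The matrix gene Comp, not tested, had 4 and 6 counts in Brd9, 3 and 5 in Baf250A and 2 and 3 in Baf180 libraries, against 1 and 1 in scramble libraries. Both were above scramble in Brd9 and Baf250A libraries, and neither set Baf250A apart from Brd9 libraries as Col2a1 did. The markers summed to 80.3 to 85.5 CPM in Brd9, 76.3 to 83.9 in Baf250A and 49.9 to 56.7 in Baf180 libraries, against 84.3 to 94.2 CPM in scramble libraries, nearly all of it Sox9. Sox9, a direct activator of Col2a1 in cartilage, had 83.9 and 79.0 CPM in Brd9, 74.8 and 82.1 in Baf250A and 49.6 and 55.8 in Baf180 libraries, against 93.2 and 83.5 CPM in scramble libraries. It fell by 0.75 (log2, SE 0.13, adjusted p = 0.00417) in Baf180 knockdown and was not called in the other two. Its partner Sox5 had at most 30 counts in a library and was not called against scramble, and Sox6 had at most 4 counts and was not tested.

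Col11a1, Col11a2 and Col27a1 are minor fibrillar chains, best known from cartilage. Col11a1 had 2.33 and 0.786 CPM in Brd9, 5.98 and 7.18 in Baf250A and 2.78 and 2.18 in Baf180 libraries, against 2.13 and 1.39 CPM in scramble libraries. Col27a1 had 3.73 and 3.61 CPM in Brd9, 5.48 and 5.99 in Baf250A and 1.45 and 0.928 in Baf180 libraries, against 1.91 and 2.02 CPM in scramble libraries. Both were highest in Baf250A libraries, above all other libraries. In Baf250A knockdown Col11a1 rose by 1.90 (log2, SE 0.42, adjusted p = 0.0115) and Col27a1 by 1.54 (SE 0.26, 0.00356), and neither was called in the other comparisons with scramble. The Col11a1 call ended without scramble replicate 2 (adjusted p = 0.0797), and with the offsets the Col27a1 value of 0.75 in Brd9 and -1.15 in Baf180 knockdown passed the threshold as well. Col11a2 lay between 0.842 and 2.07 CPM and was not called, with 0.30, 0.92 and 0.90 in Brd9, Baf250A and Baf180 knockdown, the second of which passed with the offsets at 1.22.

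The network collagens divided by type. Of 6 tested genes, 2 rose in Brd9, 3 in Baf250A and 4 in Baf180 knockdown, and none fell. Of all tested genes, 6.45%, 15.5% and 17.2% were called higher and 3.57%, 14.0% and 17.0% lower, and 6 genes are few to set against these shares. Col4a1 and Col4a2 encode the chains of the common basement membrane network and lie head to head on chromosome 8, with start sites 21 bases apart on opposite strands. Col8a1 and Col8a2 encode the chains of collagen VIII, a short-chain network collagen of vascular and corneal matrix, and lie on chromosomes 16 and 4. Their promoter windows are shown because the first pair shares its promoter and the second pair gave the widest contrast between partner chains. Each window runs from 250 bases before to 50 bases after the start in RefSeq on GRCm38.p6, in the direction of the gene, with matches to the motifs named below in capitals:
Col4a1, chr8:11312777-11313076, minus strand: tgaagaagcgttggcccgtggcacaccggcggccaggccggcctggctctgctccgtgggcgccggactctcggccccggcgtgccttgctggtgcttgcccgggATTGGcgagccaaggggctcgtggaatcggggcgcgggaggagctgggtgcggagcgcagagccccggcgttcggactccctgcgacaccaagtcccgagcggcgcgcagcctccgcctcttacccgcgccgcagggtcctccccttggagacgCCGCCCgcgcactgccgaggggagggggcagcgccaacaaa
Col4a2, chr8:11312555-11312854, plus strand: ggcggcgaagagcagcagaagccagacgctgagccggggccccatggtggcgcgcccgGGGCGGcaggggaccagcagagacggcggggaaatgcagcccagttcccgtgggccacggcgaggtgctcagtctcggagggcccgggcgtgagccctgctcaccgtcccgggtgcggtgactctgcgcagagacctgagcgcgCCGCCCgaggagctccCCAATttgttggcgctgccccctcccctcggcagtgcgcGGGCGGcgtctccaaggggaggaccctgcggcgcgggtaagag
Col8a1, chr16:57754688-57754987, minus strand: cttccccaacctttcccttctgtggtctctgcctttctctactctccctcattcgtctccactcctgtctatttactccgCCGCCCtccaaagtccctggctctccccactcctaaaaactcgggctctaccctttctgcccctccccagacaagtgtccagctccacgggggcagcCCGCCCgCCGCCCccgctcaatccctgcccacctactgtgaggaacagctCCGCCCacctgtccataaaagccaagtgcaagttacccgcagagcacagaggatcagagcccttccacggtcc
Col8a2, chr4:126286544-126286843, plus strand: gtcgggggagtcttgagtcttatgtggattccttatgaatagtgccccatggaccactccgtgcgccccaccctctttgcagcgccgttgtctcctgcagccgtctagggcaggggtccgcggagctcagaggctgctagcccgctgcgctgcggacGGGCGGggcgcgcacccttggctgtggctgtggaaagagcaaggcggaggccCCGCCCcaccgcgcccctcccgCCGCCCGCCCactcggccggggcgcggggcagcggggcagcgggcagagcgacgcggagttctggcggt
The Col4a1 and Col4a2 windows share 78 bases. GC content was 74.0% in the Col4a1, 73.7% in the Col4a2, 60.3% in the Col8a1 and 71.7% in the Col8a2 window. On both strands, the GC box (searched as GGGCGG) matched 1, 3, 4 and 4 times in these windows in turn, against at least 1 match in 35.7% of all 32851 windows. A match of the Col4a1 window and a match of the Col4a2 window are the same site, and a pair of Col8a2 matches overlap each other. The CCAAT box (searched as CCAAT) matched once in each collagen IV window, against 37.4% of all windows. No match was found in the 4 windows for the TATA box (searched as TATAAA, in 13.6% of all windows), the AP-1 motif (TGANTCA, 7.81%), the myogenic E-box (CAGCTG, 16.3%) or the TEAD motif (GGAATG, 14.7%). These letters describe the windows, and binding was not measured.

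Although their start sites adjoin, Col4a1 and Col4a2 were not at a fixed ratio. Col4a1 had 350 and 384 CPM in Brd9, 564 and 488 in Baf250A and 680 and 656 in Baf180 libraries, against 392 and 372 CPM in scramble libraries. Col4a2 had 419 and 529 CPM in Brd9, 486 and 378 in Baf250A and 791 and 675 in Baf180 libraries, against 327 and 329 CPM in scramble libraries. Brd9 libraries overlapped scramble in Col4a1 and lay above it in Col4a2. Col4a1 rose by 0.46 in Baf250A (log2, SE 0.13, adjusted p = 0.0271) and 0.81 in Baf180 knockdown (SE 0.13, 0.00266), and had -0.06 in Brd9 knockdown (SE 0.13, 0.781). Col4a2 rose by 1.16 in Baf180 knockdown (SE 0.17, 0.00185), and had 0.53 (SE 0.17, 0.0788) and 0.40 (SE 0.17, 0.104) in Brd9 and Baf250A knockdown. The Baf250A call of Col4a1 ended without scramble replicate 1, scramble replicate 2 or Baf250A replicate 1 (adjusted p up to 0.178), and with the offsets Col4a2 passed in all 3 knockdowns, at 0.36, 0.67 and 0.65. The exons of this pair overlap by 22 bases on opposite strands, and whether reads were counted by strand is not stated, so reads from those bases cannot be assigned.

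Col4a5, on chromosome X, encodes a chain of the networks found in kidney and other specialised basement membranes. It had 11.2 and 8.75 CPM in Brd9, 9.20 and 11.0 in Baf250A and 10.6 and 15.2 in Baf180 libraries, against 5.17 and 4.05 CPM in scramble libraries. All knockdown libraries lay above both scramble libraries and overlapped one another. It rose by 1.11 (log2, SE 0.26, adjusted p = 0.0283), 1.13 (SE 0.26, 0.0125) and 1.49 (SE 0.26, 0.00358) in Brd9, Baf250A and Baf180 knockdown. The Brd9 call ended without scramble replicate 1, scramble replicate 2 or Brd9 replicate 1 (adjusted p up to 0.212), and the Baf250A call without scramble replicate 2 or Baf250A replicate 2 (up to 0.0929). Its neighbour Col4a6 had at most 4 counts in a library, and Col4a3 and Col4a4, which form the kidney network with it, at most 2 and 1.

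The partner chains of collagen VIII moved apart. Col8a2 had 20.9 and 16.1 CPM in Brd9, 1.81 and 1.81 in Baf250A and 42.7 and 37.0 in Baf180 libraries, against 2.86 and 1.96 CPM in scramble libraries. Col8a1 had 54.8 and 36.7 CPM in Brd9, 87.7 and 111 in Baf250A and 35.9 and 45.3 in Baf180 libraries, against 60.9 and 58.4 CPM in scramble libraries. The Baf250A libraries were the lowest in Col8a2 and the highest in Col8a1. Col8a2 rose 7.64-fold in Brd9 (log2 2.93, SE 0.24, adjusted p = 0.000198) and 16.4-fold in Baf180 knockdown (log2 4.04, SE 0.24, adjusted p = 2.32e-05), and had a log2 value of -0.42 in Baf250A knockdown (SE 0.27, 0.258). Col8a1 rose by 0.74 (log2, SE 0.21, adjusted p = 0.0285) in Baf250A knockdown, and had -0.38 in Brd9 (SE 0.21, 0.25) and -0.55 in Baf180 knockdown (SE 0.21, 0.07). The Col8a1 call ended without scramble replicate 1, scramble replicate 2 or Baf250A replicate 2 (adjusted p up to 0.141), and with the offsets its value of -0.72 in Brd9 knockdown passed the threshold. Col10a1, the network collagen of hypertrophic cartilage, had 4 to 34 counts in a library and was not called against scramble, at 0.43 in Brd9, 1.70 in Baf250A (adjusted p = 0.0509, called with the offsets at 1.78) and -0.22 in Baf180 knockdown.

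Of the 9 FACIT genes, 2 were tested. Col12a1, whose product coats type I fibrils in tendon, ligament and muscle, rose in each knockdown. It had 746 and 562 CPM in Brd9, 424 and 468 in Baf250A and 789 and 850 in Baf180 libraries, against 207 and 184 CPM in scramble libraries, with no overlap with scramble. It rose 3.34-fold in Brd9 (log2 1.74, SE 0.16, adjusted p = 0.000376), 2.28-fold in Baf250A (1.19, SE 0.16, 0.00113) and 4.19-fold in Baf180 knockdown (2.07, SE 0.16, 8.92e-05), and each call held without any 1 library. Col16a1, a minor fibril-associated chain, had 27.0 and 24.2 CPM in Brd9, 17.5 and 17.1 in Baf250A and 42.0 and 33.9 in Baf180 libraries, against 17.5 and 17.3 CPM in scramble libraries. Its Baf250A and scramble libraries overlapped. It rose by 1.13 in Baf180 knockdown (log2, SE 0.16, adjusted p = 0.00163), and had 0.56 in Brd9 (SE 0.16, 0.0589, called with the offsets at 0.44) and -0.01 in Baf250A knockdown (SE 0.16, 0.971). The other 7 FACIT genes had at most 11 counts in a library, the highest being Col14a1.

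Among the remaining classes, the 3 expressed chains of collagen VI rose in every knockdown, and the anchoring-fibril gene Col7a1 fell in every knockdown. Col6a1 had 237 and 230 CPM in Brd9, 144 and 111 in Baf250A and 375 and 277 in Baf180 libraries, against 90.3 and 75.9 CPM in scramble libraries. Col6a2 had 91.0 and 86.7 CPM in Brd9, 59.0 and 43.2 in Baf250A and 183 and 141 in Baf180 libraries, against 22.6 and 17.6 CPM in scramble libraries. Col6a3 had 466 and 503 CPM in Brd9, 661 and 595 in Baf250A and 785 and 756 in Baf180 libraries, against 269 and 270 CPM in scramble libraries. None of the 3 overlapped scramble in any knockdown, and in CPM Baf180 libraries were highest in each. Col6a2, which lies next to Col6a1 on chromosome 10, had the largest folds: 4.42-fold in Brd9 (log2 2.14, SE 0.21, adjusted p = 0.000476), 2.54-fold in Baf250A (1.34, SE 0.21, 0.00211) and 8.05-fold in Baf180 knockdown (3.01, SE 0.21, 4.83e-05). Col6a1 rose by 1.49 (SE 0.19, 0.00181), 0.62 (SE 0.19, 0.0359) and 1.97 (SE 0.19, 0.000225), and Col6a3 by 0.85 (SE 0.12, 0.00354), 1.22 (SE 0.12, 0.000225) and 1.52 (SE 0.12, 0.000105), in Brd9, Baf250A and Baf180 knockdown. The Baf250A call of Col6a1 ended without scramble replicate 1, scramble replicate 2 or Baf250A replicate 1 (adjusted p up to 0.211), and the Brd9 call of Col6a3 without scramble replicate 1 or scramble replicate 2 (up to 0.0691). With the offsets Col6a1 had 1.54, 0.91 and 1.59, Col6a2 2.17, 1.77 and 2.56, and Col6a3 0.66, 1.29 and 1.31 in Brd9, Baf250A and Baf180 knockdown. Between knockdowns, Col6a1 in Brd9 against Baf180 was not called, at -0.48 (adjusted p = 0.0554) and -0.04 with the offsets. Nor was Col6a3 in Baf250A against Baf180, at -0.30 (adjusted p = 0.0586) and -0.02 with the offsets. Col6a4, Col6a5 and Col6a6 had at most 4 counts in a library.

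Col7a1, the collagen that anchors the epidermal basement membrane, had 3.83 and 4.09 CPM in Brd9, 2.82 and 2.38 in Baf250A and 4.87 and 4.42 in Baf180 libraries, against 8.76 and 10.2 CPM in scramble libraries. Both scramble libraries lay above all knockdown libraries. It fell by 1.26 (log2, SE 0.21, adjusted p = 0.0073), 1.87 (SE 0.22, 0.000539) and 1.03 (SE 0.21, 0.00736) in Brd9, Baf250A and Baf180 knockdown, and the Brd9 call ended without scramble replicate 2 or Brd9 replicate 1 (up to 0.0843) and the Baf180 call without scramble replicate 2 (0.0615). Col18a1, a basement membrane multiplexin from which endostatin is cut, had 195 and 233 CPM in Brd9, 176 and 129 in Baf250A and 374 and 277 in Baf180 libraries, against 242 and 236 CPM in scramble libraries. In CPM, Baf250A libraries lay lowest and Baf180 libraries highest. Col18a1 fell by 0.65 in Baf250A knockdown (SE 0.19, 0.0338), a call that ended without scramble replicate 1, scramble replicate 2 or Baf250A replicate 2. It had -0.16 in Brd9 (SE 0.19, 0.601) and 0.44 in Baf180 knockdown (SE 0.19, 0.1). With the offsets it had -0.27, -0.30 and -0.09 in Brd9, Baf250A and Baf180 knockdown, so Baf180 no longer lay above scramble.

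The transmembrane collagens were near the limit of detection. Col17a1 of the epithelial hemidesmosome had 14 to 40 counts in a library, and Col23a1 had 0 to 15, with log2 values of 0.65, -0.63 and -0.39 and of -1.58, -1.26 and 1.31 in Brd9, Baf250A and Baf180 knockdown, none called. The 19 genes that did not pass the filter had at most 18 counts in any library, which was Col24a1, a fibrillar collagen, in Brd9 replicate 1. Col28a1 followed with 14 and Col14a1 with 11, and 16 of the 19 had fewer than 20 counts over all 8 libraries. Col9a1, a FACIT of cartilage, and Col13a1, of the neuromuscular junction, had none, which allows up to 3 counts in a library, or 0.145 to 0.174 CPM, by counting error alone.

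The knockdowns were also compared with one another. Most of the members called in the comparisons with Baf180 knockdown were lower in the other knockdown. In Baf250A against Baf180 knockdown 5 were called higher and 15 lower, where 30.8% of all genes were called higher and 31.7% lower. In Brd9 against Baf180 knockdown 3 were called higher and 12 lower, against 26.3% and 23.3%. Baf250A against Brd9 gave 4 higher and 7 lower, against 10.0% and 15.0%. Medians of the tested collagen genes were -0.69, -0.57 and -0.13 in these comparisons, where the medians of all genes were -0.05, 0.02 and 0.00. With the offsets the collagen medians were -0.22, -0.40 and 0.19, so the last turned sign. GC content followed the fold change more closely here, with Spearman's rho across genes of -0.707, -0.714 and -0.358. With the offsets the counts were 6 higher and 10 lower for Baf250A against Baf180 (28.7% and 26.1% of all genes), 3 and 13 for Brd9 against Baf180 (14.0% and 19.0%), and 9 and 6 for Baf250A against Brd9 (25.5% and 18.6%). Leaving out Brd9 replicate 1 or Baf180 replicate 1 left 7 calls for Brd9 against Baf180, and leaving out Brd9 replicate 1 or Baf250A replicate 2 left 7 and 6 for Baf250A against Brd9.

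Among calls that held without any 1 library, those past 2 on the log2 scale were of Col2a1, Col8a2, Col5a3, Col27a1 and Col11a1. Col2a1 was higher in Baf250A than in Brd9 libraries by 7.08 (log2, SE 0.38, adjusted p = 1.79e-05) and higher in Baf250A than in Baf180 libraries by 2.77 (SE 0.27, 9.55e-05). Col8a2 was lower in Baf250A libraries, at -4.46 against Baf180 (SE 0.25, 1.64e-05) and -3.35 against Brd9 (SE 0.25, 4.85e-05). Col5a3 was lower in Baf250A libraries as well, at -2.89 against Brd9 (SE 0.20, 3.93e-05) and -2.23 against Baf180 (SE 0.20, 6.98e-05), and Col27a1 was higher in Baf250A than in Baf180 libraries by 2.27 (SE 0.28, 0.000241). Col2a1 was lower in Brd9 than in Baf180 libraries, at -4.31 (SE 0.41, 0.000826), and Col11a1 was higher in Baf250A than in Brd9 libraries by 2.06 (SE 0.42, 0.00829). All of these calls held with the offsets and without any 1 library.

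Of the abundant chains, Col1a2 and Col5a1 were lower in both of the others than in Baf180 libraries, at -0.96 and -1.27 for Baf250A (SE 0.12 and 0.15, adjusted p = 0.000274 and 0.000192) and -0.90 and -0.84 for Brd9 (SE 0.12 and 0.14, 0.00273 and 0.00468), and these calls also held in both checks. Col4a2, Col18a1, Col1a1, Col16a1 and Col7a1 were called lower in Baf250A than in Baf180 libraries, at -0.76, -1.09, -0.48, -1.13 and -0.84, and with the offsets these calls ended, at 0.02, -0.22, 0.26, -0.22 and -0.15. The Col1a1 and Col7a1 calls also ended without Baf250A replicate 2 (adjusted p = 0.103 and 0.0924). Col4a1 was called lower there at -0.35 (SE 0.13, adjusted p = 0.0407), was called in none of the fits without 1 library (adjusted p up to 0.351), and with the offsets turned to 0.25 and was called higher. Col18a1 and Col16a1 in Brd9 against Baf180 knockdown, called at -0.60 and -0.57, and Col16a1 in Baf250A against Brd9 knockdown, called at -0.57, were likewise not called with the offsets, at -0.18, -0.13 and -0.10. They ended as well without Brd9 replicate 1 or Baf180 replicate 1 for Col18a1 (up to 0.21), without either of those or Brd9 replicate 2 for Col16a1 against Baf180 (up to 0.127), and without any 1 scramble, Brd9 or Baf250A library for Col16a1 against Brd9 (up to 0.158). Col10a1, Col17a1 and Col23a1 had calls between knockdowns on at most 40 counts in a library, and each ended without some library. For Baf250A against Baf180, Col10a1 at 1.92 ended without Baf250A replicate 1 or Baf180 replicate 1 (up to 0.125), and Col23a1 at -2.57 without Baf250A replicate 2 or Baf180 replicate 1 (up to 0.113). For Baf250A against Brd9, Col17a1 at -1.28 ended without Brd9 replicate 2 or either Baf250A library (up to 0.22). For Brd9 against Baf180, Col17a1 at 1.04 ended in all 8 such fits (up to 0.21), and Col23a1 at -2.89 without either Brd9 library or Baf180 replicate 1 (up to 0.109).

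Because the protein is built from partner chains, the ratio of partner mRNAs per kilobase was set out by library, with no test. Col6a2 to Col6a1 was 0.411 and 0.403 in Brd9, 0.437 and 0.418 in Baf250A and 0.523 and 0.542 in Baf180 libraries, against 0.267 and 0.249 in scramble libraries, so every knockdown library lay above scramble. Col1a1 to Col1a2 was 0.234 and 0.248 in Brd9, 0.217 and 0.211 in Baf250A and 0.150 and 0.157 in Baf180 libraries, against 0.179 and 0.175 in scramble libraries, and stayed below 1 throughout, although collagen I holds more alpha 1 than alpha 2 chains. Col4a1 to Col4a2 was 0.814 and 0.708 in Brd9, 1.13 and 1.26 in Baf250A and 0.838 and 0.948 in Baf180 libraries, against 1.17 and 1.10 in scramble libraries, lower in Brd9 and Baf180 than in the others. Col8a2 to Col8a1 was 0.450 and 0.519 in Brd9, 0.0244 and 0.0192 in Baf250A and 1.40 and 0.964 in Baf180 libraries, against 0.0555 and 0.0397 in scramble libraries, the widest range of these ratios. Col5a3 to Col5a1 was 0.0925 and 0.0916 in Brd9, 0.0179 and 0.0153 in Baf250A and 0.0328 and 0.0322 in Baf180 libraries, against 0.0371 and 0.0350 in scramble libraries. The log2 changes of these 5 ratios against scramble kept their sign with the offsets, except Col4a1 to Col4a2 in Baf250A knockdown, at 0.06 and -0.02. Sizes changed more: Col8a2 to Col8a1 in Baf250A knockdown was -1.16 without and -0.51 with the offsets. Col5a1 to Col5a2, not set out by library, turned from 0.25 to -0.19 in Baf180 knockdown. It kept its sign in Brd9 (-0.24 and -0.14) and Baf250A knockdown (-0.75 and -0.49).

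**Figure D5:**
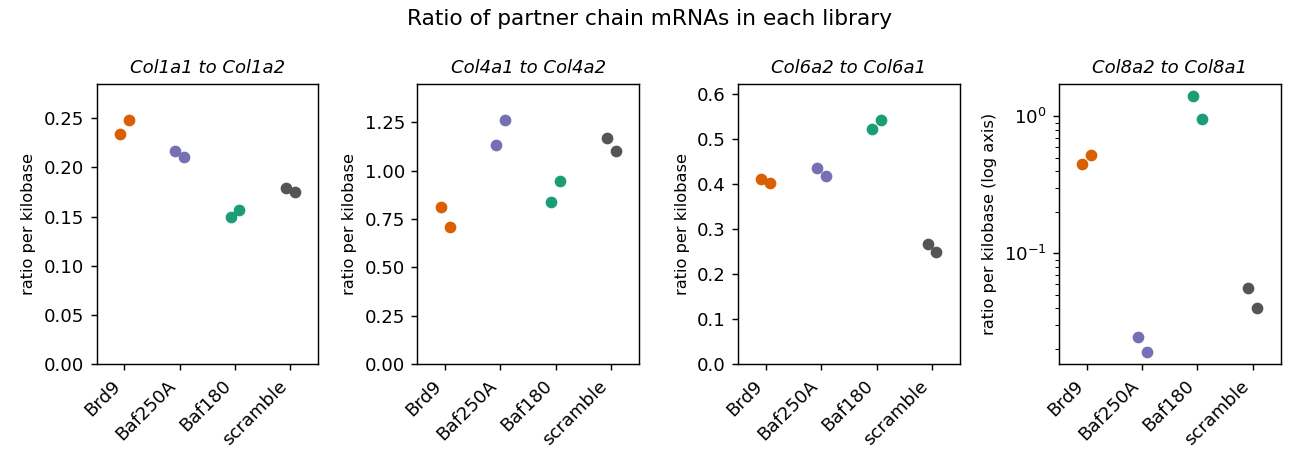
Ratio of partner chain mRNAs per kilobase in each library (1 point each), for collagens I, IV, VI and VIII, with the groups in the order Brd9, Baf250A, Baf180 and scramble. The Col8a2 to Col8a1 panel has a log axis and runs from 0.0192 to 1.40, the other axes start at 0.

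Chains are modified, folded, trimmed and cross-linked by a shared set of enzymes and chaperones. Of 37 such genes, 34 were tested. In Brd9 knockdown 7 rose and 2 fell, in Baf250A knockdown 7 rose and 4 fell, and in Baf180 knockdown 17 rose and 4 fell. The shares of all tested genes called higher were 6.45%, 15.5% and 17.2%, and those called lower 3.57%, 14.0% and 17.0%. Higher calls made 20.6% of the 34 genes in Brd9 and in Baf250A knockdown, so the Baf250A share was nearer that of all genes. In Baf180 knockdown the share called higher was above that of all genes, and the share called lower was below it. No test was made on these shares. The median log2 fold changes of the 34 genes were 0.18, 0.00 and 0.50, and 0.08, 0.18 and 0.40 with the offsets. Of the genes called, 9, 10 and 16 were called in the same direction with the offsets. The counts called without the offsets were lower in some fits without 1 library. For Brd9 these were the fits without scramble replicate 1, scramble replicate 2 or Brd9 replicate 1. For Baf250A they were those without scramble replicate 1 or Baf250A replicate 2, and for Baf180 those without scramble replicate 1, scramble replicate 2 or Baf180 replicate 1. Fewer of all tested genes were called in each of these fits as well. Of 13 tested prolyl and lysyl modifying genes, 2, 3 and 8 rose in Brd9, Baf250A and Baf180 knockdown and none fell. Of all tested genes, 6.45%, 15.5% and 17.2% were called higher, and the Brd9 and Baf250A counts are too small to read against these shares. With the offsets 2, 3 and 6 of these calls held. P3h3 and P4ha3, subunits of prolyl hydroxylases, were called in all 3, at 0.71, 0.53 and 1.29 and at 0.86, 0.64 and 1.31. Without 1 library the Brd9 and Baf250A calls ended, for P3h3 without any 1 library of either group compared (adjusted p up to 0.202 and 0.195) and for P4ha3 without scramble replicate 1, scramble replicate 2, Brd9 replicate 1 or Baf250A replicate 2 (up to 0.143 and 0.135). Fkbp14, a folding enzyme of the endoplasmic reticulum, rose by 1.31 in Brd9 (SE 0.20, 0.00495; 0.0741 without scramble replicate 2) and 1.18 in Baf180 knockdown (SE 0.20, 0.00354). The procollagen chaperone Serpinh1 (HSP47), chosen after its values were seen, had 913 and 997 CPM in Brd9, 979 and 770 in Baf250A and 1382 and 1181 in Baf180 libraries, against 1034 and 944 CPM in scramble libraries, and was not called in any of these comparisons.

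Propeptide processing and cross-linking genes were more divided. Of 6 tested propeptide processing genes, 2, 1 and 3 rose in Brd9, Baf250A and Baf180 knockdown, and 2 fell in each. Of all tested genes, 6.45%, 15.5% and 17.2% were called higher and 3.57%, 14.0% and 17.0% lower, and 6 genes are few to set against these shares. With the offsets 4, 3 and 4 of the propeptide processing calls held in the same direction, so not all of those in Baf180 knockdown did. Adamts2, the protease that removes the amino-terminal propeptide of collagens I and III, had 34.9 and 31.9 CPM in Brd9, 55.3 and 48.5 in Baf250A and 68.2 and 61.3 in Baf180 libraries, against 8.65 and 8.55 CPM in scramble libraries. It rose by 1.96 (log2, SE 0.15, adjusted p = 0.000183), 2.59 (SE 0.15, 1.44e-05) and 2.91 (SE 0.15, 1.59e-05) in Brd9, Baf250A and Baf180 knockdown, and the calls held without any 1 library. Pcolce2, an enhancer of carboxy-terminal processing, fell by 0.82 (SE 0.14, 0.00729), 1.82 (SE 0.14, 6.13e-05) and 0.58 (SE 0.14, 0.013) in Brd9, Baf250A and Baf180 knockdown. Bmp1, the main carboxy-terminal proteinase, fell by 0.87 (SE 0.16, 0.00468) in Baf250A and rose by 0.81 (SE 0.16, 0.00562) in Baf180 knockdown. The cross-linking enzyme Lox had 787 and 493 CPM in Brd9, 586 and 777 in Baf250A and 322 and 375 in Baf180 libraries, against 304 and 294 CPM in scramble libraries. It rose by 1.10 in Brd9 (SE 0.22, 0.0173) and 1.19 in Baf250A knockdown (SE 0.22, 0.00574), and had 0.22 in Baf180 knockdown (SE 0.22, 0.458, called with the offsets at 0.72). Its relative Loxl2 fell by 2.13 in Baf250A (SE 0.13, 1.68e-05) and 1.35 in Baf180 knockdown (SE 0.13, 0.000208), and Loxl3 rose there by 1.44 (SE 0.19, 0.00089) and 1.31 (SE 0.19, 0.00153). Without scramble replicate 1, scramble replicate 2 or Brd9 replicate 1, the Brd9 calls of Lox and Pcolce2 ended (adjusted p up to 0.139 and 0.0829). The Baf180 call of Pcolce2 ended without either scramble library or Baf180 replicate 1 (up to 0.109), the Baf250A call of Bmp1 without Baf250A replicate 2 (0.0534) and its Baf180 call without scramble replicate 1 (0.0529).

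Of 7 collagen receptor genes 6 were tested, and 2 rose and none fell in each knockdown, where 6.45%, 15.5% and 17.2% of all tested genes were called higher in Brd9, Baf250A and Baf180 knockdown. So few genes give no reading against those shares. Itga11, the alpha subunit of a fibrillar collagen receptor, had 17.0 and 17.5 CPM in Brd9, 15.8 and 12.7 in Baf250A and 4.12 and 3.49 in Baf180 libraries, against 2.02 and 1.33 CPM in scramble libraries. It rose by 3.36 (log2, SE 0.26, adjusted p = 0.000183), 3.08 (SE 0.26, 8.29e-05) and 1.18 (SE 0.27, 0.0113) in Brd9, Baf250A and Baf180 knockdown, and the Baf180 call ended without scramble replicate 2 or Baf180 replicate 1 (up to 0.0943). Itga1, of the receptor that prefers collagen IV, rose by 2.61 in Brd9 (SE 0.62, 0.0325; up to 0.178 without scramble replicate 2 or Brd9 replicate 1) and by 3.54 in Baf250A knockdown (SE 0.60, 0.00364), on at most 114 counts in a library and 13 and 2 counts in scramble libraries. The discoidin receptor Ddr1 rose by 1.25 (SE 0.17, 0.00127) in Baf180 knockdown.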

How the data were processed

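RNA-seq was analysed from 8 libraries of C2C12 myoblasts, grouped by the sample titles. The authors deposited an unnormalised estimated count for each gene and library, with gene length in bases as another value, per the file headers. Per the submitters' processing notes, build mm10 and the tools RSEM, Bowtie2, HISAT2, StringTie, Cufflinks and DESeq2 were used, in no stated order. Their versions and any use of strand in counting are not given in the sources here. Counts were rounded to whole numbers. Of 24573 gene IDs, 24479 matched a RefSeq gene table by ID and 9 by accession, and 85 were not matched.

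Genes were filtered by filterByExpr and libraries scaled by TMM (factors 0.8458 to 1.123), and all 8 libraries entered 1 quasi-likelihood fit in edgeR 4.0.16 (R 4.3.3) with 4 groups and 6 contrasts. P-values were adjusted by Benjamini-Hochberg over 12420 genes within each comparison, and 0.05 was the threshold. SE is the absolute log2 fold change over the square root of F. CPM use the scaled library size. Alternatives were DESeq2 1.42.0, limma-voom (3.58.1), scaling by RLE or upper quartile, dropping the filter, a filter at a mean of 5 CPM, the 4 libraries compared alone, a replicate block, each library left out, and GC and length offsets (loess span 0.3, GC content for 98.95% of tested genes). The procedure was tested on simulated counts. Replicate libraries differed by more than sampling noise, so none was counted as a duplicate.

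Members, classes and gene lists were chosen with earlier results of these data known. Per-library values are given for collagen genes that average 20 CPM or more in a group, or are called against scramble with a log2 fold change of at least 1 in size. Of the maturation and receptor lists, called genes could be named, with values for those among the 6 lowest p in a comparison. Promoter sequences are from RefSeq. Windows were found for 35 collagen genes.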

Additional observations from a re-analysis of the deposited data

How the results depend on the processing

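Of 92 called collagen results, 3 changed sign under an alternative: Col4a2, Col4a1 and Col1a1 in Baf250A against Baf180 knockdown were 0.02, 0.25 and 0.26 with GC and length offsets, and the same with the replicate block added. Uncalled results also changed sign. Col18a1 in Baf180 knockdown was -0.09 with the offsets, with or without the block. Col16a1 in Baf250A knockdown was 0.02 under RLE scaling and DESeq2, 0.00 under the 5 CPM filter, and 0.34 with the offsets, with or without the block. Without 1 library, log2 values against scramble ran from -0.11 to 0.03 for Col4a1 in Brd9, -0.02 to 0.06 for Col16a1 in Baf250A, -1.01 to 0.41 for Col2a1 in Brd9, -1.13 to 0.42 for Col11a1 in Brd9, and -0.19 to 1.29 and -0.86 to 0.64 for Col10a1 in Brd9 and Baf180 knockdown.

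Without 1 library, the collagen genes called numbered 6 to 15 for Brd9 and 9 to 17 for Baf250A against scramble, 6 to 12 for Baf250A against Brd9 (7 without Brd9 replicate 1, 6 without Baf250A replicate 2) and 7 to 15 for Brd9 against Baf180 (7 without Brd9 replicate 1 or Baf180 replicate 1). Collagen maturation genes called numbered 1 to 10, 6 to 12 and 10 to 21 for Brd9, Baf250A and Baf180 against scramble. In fits without 1 library from a comparison, the lone library left was assumed to vary like the other groups. Without scramble replicate 1 or 2, fewer of all tested genes were called too in each comparison with scramble. Under the other settings, counts of collagen genes called stayed within 1.5 times of those reported. Replicate numbers did not pair the libraries in the same direction in all groups. Across genes, deviations of same-numbered libraries correlated at 0.456 for Baf250A with Baf180. For Brd9 with Baf250A and with Baf180 the values were -0.468 and -0.481. With scramble they were -0.047, 0.123 and 0.019 for Brd9, Baf250A and Baf180. With the replicate block, 10, 16 and 17 collagen genes were called for Brd9, Baf250A and Baf180 against scramble, 9 for Baf250A against Brd9, 19 for Baf250A against Baf180 and 14 for Brd9 against Baf180. Over all tested genes, fewer were called with this block in every comparison. With the Brd9 numbers crossed in the replicate block, chosen after seeing the data, 17 collagen genes were called for Baf250A against Brd9 and 18 for Brd9 against Baf180. Over all 12420 tested genes, calls higher and lower went from 1246 and 1862 to 2434 and 2632 for Baf250A against Brd9. For Brd9 against Baf180 they went from 3270 and 2888 to 3971 and 3713, and for Baf250A against Baf180 from 3824 and 3942 to 4241 and 4490. Calls against scramble rose as well. They went from 801 and 443 to 2123 and 1751 for Brd9 and from 1926 and 1743 to 3084 and 2938 for Baf250A. For Baf180 they went from 2142 and 2111 to 2989 and 3322. The cause of these changes was not tested. Depth limits what can be said of the 19 untested genes.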
